A study of Zea mays with 12 samples.

Results

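At the base of the maize kernel the endosperm meets the mother plant through its basal endosperm transfer layer (BETL), and the tissue facing it is the maternal transfer zone (MATZ). The comparison described here asked which transcripts changed differently in these tissues between 8 and 14 days after pollination (DAP). For each gene the change in MATZ (14 DAP minus 8 DAP) was subtracted from the change in BETL, which gives a difference of changes. It compares 8 of the 12 libraries of the study, 2 each of BETL and MATZ at both ages, with the spread estimated from all 12. Genes were taken as called where the adjusted p was under 0.05, and 307 of 24213 genes tested were called, out of 39423 gene models listed. With the spread estimated from the 8 libraries alone, 1 gene was called. All 12 libraries are RNA of wild-type kernels of the inbred line W22, grown in the field with the tissues cut apart while frozen (cryomicrodissection), and the other 4 are the same tissues at 20 DAP. Nothing in the labels tells whether both libraries in each group are separate plants, ears or pools of kernels, and p-values then measure a spread that may be technical.

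Transfer cells of the BETL carry folded walls and take up the sugars, amino acids and minerals that the embryo and the filling endosperm use. Between the ages compared, the kernel passes from a phase of cell division into one of storage product synthesis, and the maternal cells below the endosperm are known to undergo programmed death as filling proceeds. Small secreted proteins, the betl and bap families, mark the BETL, zeins are storage proteins of the starchy endosperm, and AGAMOUS-type MADS-box genes mark maternal tissue. Pieces of tissue were sequenced in bulk, so fewer cells of a type and less RNA per cell cannot be told apart in any value below.

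Values are FPKM, and logarithms are log2(FPKM + 1), a scale that understates changes of low genes. Column totals ran from 731024 to 987477 FPKM. Read depth is not given in the sources used here, and the share of tested genes listed at 0 ran from 15.6% to 48.1% over the 8 libraries. It was 48.1% and 37.6% in BETL at 8 DAP, 32.6% and 15.6% in BETL at 14 DAP, 22.9% and 30.8% in MATZ at 8 DAP, and 28.3% and 37.2% in MATZ at 14 DAP. Zeros thus became fewer with age in BETL and were somewhat more common at 14 DAP in MATZ, and genes are described below as listed at 0, not as absent. Transfer layer and maternal markers followed the tissue labels: the 16 transfer layer genes summed to 38725 and 49104 FPKM in BETL at 8 DAP and to 1221 and 1922 in MATZ. Summed levels of 5 maternal markers (MADS4, zag2, zmm6, pip2b and KN-1) were 2890.2 and 2755 FPKM in BETL and 7019 and 6880.1 in MATZ at that age, and KN-1 was listed at 0 in BETL. Other endosperm-side markers did not all do so. Mean sums of embryo and of non-zein starchy endosperm markers were higher in MATZ at 8 DAP, at low and overlapping levels. The zein sum was higher in MATZ at 14 DAP.

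Of the 307 genes called (1.27% of those tested), 170 had a difference above 0 (0.702%), meaning that BETL gained relative to MATZ, and 137 had one below 0 (0.566%). The 2 sets differed in abundance. Genes with a lower difference had a median of 458 FPKM in the highest of their 4 groups, and 110 of 137 reached 100 FPKM, while the genes with a higher difference had a median of 23.4 FPKM and 42 of 170 reached 100. In the higher set 127 of 170 genes were listed at 0 in both libraries of at least 1 group, most often BETL at 8 DAP (115) or MATZ at 14 DAP (102), against 28 of 137 in the lower set. Of all genes tested, 48.1% and 37.6% were at 0 in the single libraries of BETL at 8 DAP, and 28.3% and 37.2% in those of MATZ at 14 DAP. The share of all genes at 0 in both libraries of a group is not given here. As the 2 sets also differ in abundance, these counts only describe the called genes. The part of library depth in these calls was not tested.

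Among the 137 lower genes BETL itself fell in 78 and MATZ rose in 66, and both did so in 9; for comparison, 2.58% of all genes tested fell in BETL and 3.11% rose in MATZ. The rest included 12 genes that rose in both tissues and 9 that fell in both, to different extents. Among the 170 higher genes BETL rose in 112 and MATZ fell in 67 (9.06% and 2.48% of all genes tested), with both in 10. At 8 DAP 66 of the lower genes were called higher in BETL and 7 higher in MATZ (2.16% and 5.31% of all genes tested), and at 14 DAP 38 and 78 (4.63% and 4.38%). Of the higher genes 1 was called higher in BETL and 105 higher in MATZ at 8 DAP, and 72 and 2 at 14 DAP. Both tissue changes, and the tissue contrasts at 8 and 14 DAP, are parts of the difference that selected these genes. Shares above those of all genes were therefore largely set by the selection, and these counts only describe the called genes.

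The median difference over all genes tested was 0.54, with a median change of 0.75 in BETL and 0.14 in MATZ, so most genes lay on the higher side. Among genes with a mean of at least 20 FPKM over the 8 libraries it was 0.08. Quantile normalization brought the median over all genes to 0.04, and the split of calls went from 170 higher and 137 lower (55.4% higher) to 88 and 124 (41.5%). The count itself depended on how the spread was estimated: fitted on the 8 libraries alone, limma called 1 gene. Over genes tested, replicates correlated with r = 0.79 in BETL and 0.81 in MATZ at 8 DAP, and 0.80 and 0.79 at 14 DAP. At 20 DAP r was 0.91 in BETL and 0.79 in MATZ. The shared spread may thus be smaller than that of the groups compared. Over all genes, 3880 (16.0%) had an unadjusted p under 0.05 in the fit on 12 libraries and 3566 in that on 8. Without the MATZ 14 DAP replicate 2 the count was 68, without the BETL 8 DAP replicate 1 it was 88, and without replicate 1 or 2 of BETL at 20 DAP it was 148 or 162. It was 157 without MATZ 14 DAP replicate 1, 144 without BETL 14 DAP replicate 1 and 202 without MATZ 20 DAP replicate 1, and it was 797 and 692 without replicate 1 or 2 of MATZ at 8 DAP and 500 without BETL 14 DAP replicate 2.

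**Figure D1:**
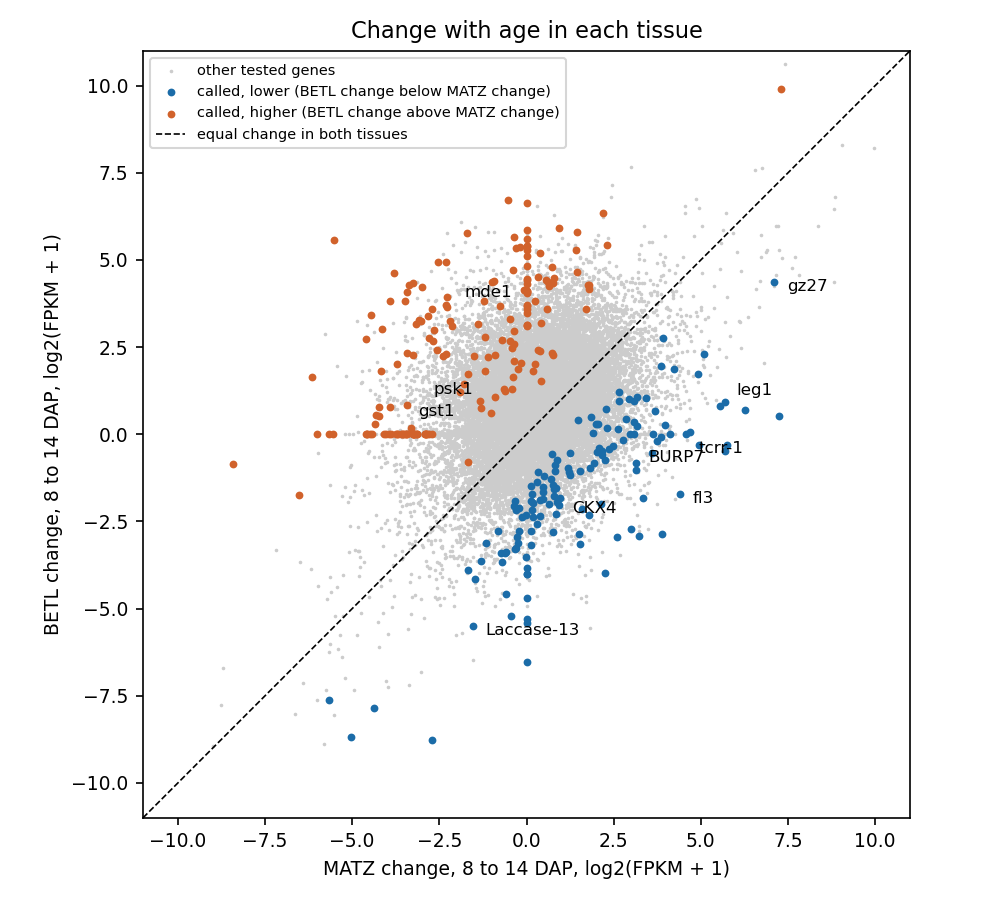
Change from 8 to 14 DAP in MATZ (x) and in BETL (y) for each of 24213 genes, on the log2(FPKM + 1) scale, 2 libraries per group. Called genes lie off the diagonal of equal change, 137 below it (blue) and 170 above it (orange), and a row of orange points at a BETL change of 0 are genes listed at 0 in BETL at both ages.

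Of all gene lists, that of the transfer layer held the most called genes. Of its 16 members measured, 14 had a difference below 0 and 5 were called, all lower (betl4, betl10, betl-9, bap2 and tcrr-1), beside 0.566% of all genes tested. None of the 16 was called without the trend of the spread on the mean or with the spread taken from the 8 libraries alone, 3 were with library weights, and 2 to 5 when 1 library was left out. The median difference was -1.86 against 0.54 for all genes, from a median change of -0.62 in BETL and 1.39 in MATZ. Many members are abundant, and the median over genes with a mean of at least 20 FPKM was 0.08. When such a mean over the 12 libraries was required, 221 of 5676 genes were called lower, and 5 transfer layer genes were called. In MATZ 6 of the 16 rose (3.11% of all genes tested) and none fell, while in BETL 1 rose and 2 fell (9.06% and 2.58%). The betl genes, which encode small secreted proteins of the transfer cells, remained far more abundant in BETL than in MATZ at both ages.

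The gene betl4 (GRMZM2G073290, chromosome 4, 208847826 to 208848375) stood at 2777 and 3844 FPKM in BETL at 8 DAP and at 2135 and 3191 at 14 DAP, and in MATZ at 90.3 and 125 and then 717 and 499. BETL ages overlapped, whereas both later MATZ libraries lay above both earlier ones, a 5.66-fold rise in the mean. Its difference of changes was -2.81 ± 0.37 (log2, SE, adjusted p = 0.0132). A like course was seen for betl10 (GRMZM2G091445, chromosome 3, 155381664 to 155382256), at 5496 and 6439 and then 5539.6 and 6709.7 FPKM in BETL and at 167 and 209 and then 783 and 639.6 in MATZ. Again BETL ages overlapped and MATZ ages did not, and the difference was -1.88 ± 0.25 (log2, SE, adjusted p = 0.0137). Both calls held when any 1 of the 12 libraries was left out.

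Unlike these, betl-9 (GRMZM2G087413, chromosome 3, 138623892 to 138624577) rose in both tissues. It was at 5909 and 7775 FPKM in BETL at 8 DAP and 10961 and 17442 at 14 DAP, and at 138 and 243 and then 2231 and 1776 in MATZ. Ages were separate in both tissues, and the rise of the mean was 2.08-fold in BETL and 10.5-fold in MATZ, with a difference of -2.40 ± 0.41 (log2, SE, adjusted p = 0.0311). The antifungal protein gene bap2 (GRMZM2G152655, chromosome 4, 34264143 to 34265135) went the other way, from 11351 and 14698 to 3060.4 and 5474 FPKM in BETL, while MATZ had 429 and 440.3 and then 752 and 492. Here the fall in BETL passed the test (adjusted p = 0.00793), the MATZ change did not (adjusted p = 0.431), and the difference was -2.14 ± 0.41 (log2, SE, adjusted p = 0.0429). The response regulator gene tcrr-1 (GRMZM2G016145, chromosome 4, 70575698 to 70576978), of the type that acts in cytokinin signaling, held at 123 and 116 and then 110.3 and 139 FPKM in BETL. In MATZ it was listed at 0 in both libraries at 8 DAP and stood at 37.9 and 16.3 at 14 DAP, for a difference of -4.64 ± 0.80 (log2, SE, adjusted p = 0.0311). These 3 calls were less secure: betl-9 and tcrr-1 were called in 3 of 12 fits that left out 1 library, and bap2 in 1, with BETL 8 DAP replicate 1 and MATZ 14 DAP replicate 2 among the libraries whose loss ended each.

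The most abundant members did not all pass. For betl3, at 6782 and 14082 FPKM (means) in BETL and 378 and 1709.9 in MATZ, the difference was -1.28 (log2, 95% interval -2.38 to -0.19, adjusted p = 0.225). For BETL1 it was -1.84 (log2, 95% interval -4.48 to 0.79, adjusted p = 0.5), with MATZ libraries at 12.2 and 158 FPKM at 8 DAP. Members of these families are near-identical in part, and how shared reads were assigned is not stated, so single members are uncertain.

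Other abundant transcripts of the BETL also had lower differences. BURP7 (GRMZM2G032145, chromosome 7, 6570606 to 6574556), which encodes a BURP-domain wall protein, was at 8914 and 11080.5 FPKM in BETL at 8 DAP and at 4247 and 5636 at 14 DAP, and in MATZ at 63.6 and 25.9 and then 400.3 and 332. Ages did not overlap in either tissue, BETL exceeded MATZ 223-fold at 8 DAP and 13.5-fold at 14 DAP, and the difference was -4.15 ± 0.48 (log2, SE, adjusted p = 0.00885). The unnamed gene GRMZM2G406552 (chromosome 4, 195759880 to 195760460) had the highest level of all lower calls, 61359 and 70372 FPKM in BETL at 8 DAP and 133907 and 130460.0 at 14 DAP. Its MATZ libraries rose from 982 and 1777 to 9615 and 10878, so that the mean grew 2.01-fold in BETL and 7.43-fold in MATZ, and the difference was -1.94 ± 0.31 (log2, SE, adjusted p = 0.0255). GRMZM5G897740 (chromosome 5, 215320399 to 215321009) also rose in both, by 3.95-fold and 14.4-fold (difference -1.89 ± 0.27, log2, SE, adjusted p = 0.0174). GRMZM2G158400 (chromosome 4, 210751468 to 210752118) instead fell in BETL, from 10284 and 11579 to 3642 and 2762 FPKM, beside 318 and 403 and then 471 and 796 in MATZ, and its difference was -2.56 ± 0.40 (log2, SE, adjusted p = 0.0247). Of these, BURP7 was called in all 12 fits that left out 1 library, GRMZM5G897740 in 10, and the other two in 4 each. BETL 8 DAP replicate 1 and MATZ 14 DAP replicate 2 were among the libraries whose loss ended each of those 3 calls.

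Endosperm genes outside the transfer layer list also rose in MATZ. The gene fl3 (GRMZM2G006585, chromosome 8, 52090731 to 52092148), which encodes a PLATZ protein of the endosperm, was at 644 and 565 FPKM in BETL at 8 DAP and fell to 145 and 228. In MATZ it was at 10.6 and 5.12 and rose to 233 and 136, which brought the 14 DAP means to 187 in BETL and 185 in MATZ, and the difference was -6.13 ± 0.61 (log2, SE, adjusted p = 0.00626). Both tissues overlapped at 14 DAP after a 76.9-fold gap at 8 DAP. The legumin gene leg1 (GRMZM2G174883, chromosome 6, 39891824 to 39893787), for a storage globulin, was at 114 and 57.7 and then 123 and 142 FPKM in BETL and at 3.24 and 0 and then 162 and 150.4 in MATZ. Its difference was -5.56 ± 0.89 (log2, SE, adjusted p = 0.0257). esr1 (GRMZM2G046086, chromosome 1, 14288359 to 14288941), a gene of the embryo surrounding region that encodes a small CLE-related protein, fell from 110.3 and 157 to 10.9 and 27.3 FPKM in BETL. In MATZ it was listed at 0 in both 8 DAP libraries and at 10.6 and 18.0 FPKM at 14 DAP (difference -6.74 ± 0.98, log2, SE, adjusted p = 0.0194). The related esr2 had a difference of -2.77 (log2, 95% interval -4.40 to -1.14, adjusted p = 0.0971). Leaving out single libraries ended none of the calls for fl3, 2 of 12 for esr1 (those without replicate 1 of BETL at 8 DAP and replicate 2 of MATZ at 14 DAP) and 6 of 12 for leg1, which include those 2.

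Zeins rose steeply in both tissues. In BETL 17 of 24 tested zein genes rose and in MATZ 19, with none falling (9.06% and 3.11% of all genes tested rose), and the difference was below 0 for 23 of 24 (median -2.15, from 4.82 in BETL and 7.01 in MATZ). Of 26 zein genes listed, 18 in BETL and 15 in MATZ were at 0 in both libraries at 8 DAP. How reads shared between members were assigned is not stated, so the members may not be separate observations. Of the 24 tested, 1 passed the test of the difference. The gamma zein gene gz27 (GRMZM2G138727, chromosome 7, 120200894 to 120203011) went from 25.7 and 31.7 to 565 and 647 FPKM in BETL and from 4.64 and 9.64 to 1084 and 1049 in MATZ. At 8 DAP both BETL libraries were above both of MATZ and at 14 DAP the order was turned, with a difference of -2.75 ± 0.47 (log2, SE, adjusted p = 0.0311), a call that 7 of 12 fits without 1 library lost (among them BETL 8 DAP replicate 1 and MATZ 14 DAP replicate 2). The 2 zein genes with the highest levels were not called. For gz16 the difference was -1.62 (log2, 95% interval -3.14 to -0.11, adjusted p = 0.273). The exception in sign was bz15, listed at 0 in BETL at 8 DAP and at 1789.8 and 1356 FPKM at 14 DAP, with a difference of 3.18 (log2, 95% interval 1.56 to 4.80, adjusted p = 0.0664).

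Summed marker lists did not all move alike. Over the 16 transfer layer genes, the MATZ sum went from 1221 and 1922 FPKM to 7096 and 6275, or to 4.26 times the mean, and the BETL sum from 38725 and 49104 to 46244 and 56728. The MATZ sum was thus 3.58% of the BETL sum at 8 DAP, 12.99% at 14 DAP and 12.3% at 20 DAP, and in MATZ 3 of the 16 (tcrr-1, EBE-2 and EBE-1) were listed at 0 in both libraries at 8 DAP and 1 (bap-3a) at 14 DAP. Summed embryo surrounding markers (3 genes) in MATZ went from 12.4 and 17.1 FPKM to 183 and 255 and in BETL from 667 and 868 to 1228 and 2034, although esr1 itself fell there. In MATZ zeins (26 genes) went from 52.4 and 81.1 to 11709 and 11359. BETL zein sums were 84.0 and 74.3, then 4324 and 4449. Sums of embryo markers and of other starchy endosperm markers went the other way, with the larger increase in BETL. The mean sum of 5 embryo markers was 40.5-fold higher at 14 DAP in BETL and 6.70-fold in MATZ, from a MATZ sum at 152% of that of BETL to one at 25.1%. At 8 DAP the embryo sums were low, at 26.9 and 7.22 FPKM in BETL and 11.6 and 40.3 in MATZ. The mean sum of 4 starchy endosperm markers other than zeins was 13.5-fold higher in BETL and 5.21-fold in MATZ, from 237% to 91.3%. These 4 gene models were those found by a search for the names o2, pbf1, sh2 and bt2. These 4 summed to at most 50.1 FPKM in any of the 8 libraries. For both sets the tissues overlapped at 8 DAP, so these folds and percentages rest on an unsteady base. The part of endosperm tissue in the MATZ pieces in these changes was not tested.

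**Figure D2:**
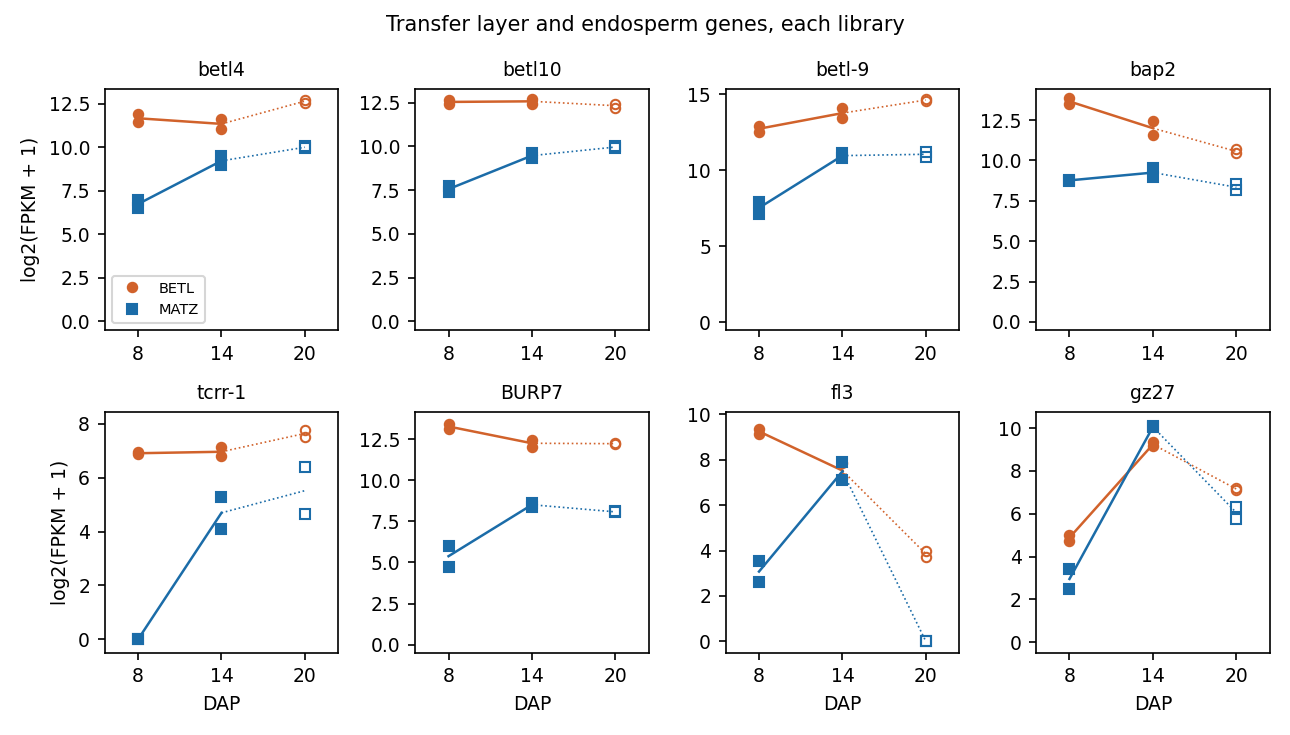
Level in each library, as log2(FPKM + 1), against age in DAP for 8 genes of the transfer layer and endosperm, with BETL as circles and MATZ as squares. Lines join group means, solid over the 8 to 14 DAP change compared here, and open symbols are 20 DAP libraries; the MATZ line climbs more steeply than, or against, the BETL line in each panel.

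A second set of lower genes was expressed in both tissues at 8 DAP and fell in BETL. It included genes for hormone breakdown, proteolysis, water transport and laccases, and 60 of the 137 lower genes fell in BETL with no called change in MATZ. Of all genes tested 2.58% fell in BETL, whatever MATZ did, and selection on the difference favors this class. The cytokinin oxidase gene CKX4 (GRMZM5G817173, chromosome 3, 191840046 to 191843911), whose enzyme degrades cytokinins, was at 593 and 535 FPKM in BETL and 463 and 480.2 in MATZ at 8 DAP. By 14 DAP BETL had 122 and 155 and MATZ 880.1 and 930.0. It fell 4.07-fold in BETL and rose 1.92-fold in MATZ, both past the test, with a difference of -2.96 ± 0.27 (log2, SE, adjusted p = 0.00592). It was the one called gene among 29 tested cytokinin genes, whose median difference was -0.23.

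The cysteine protease gene ccp1 (GRMZM2G098298, chromosome 5, 158865959 to 158869458) fell from 2178 and 1737 FPKM in BETL at 8 DAP to 348 and 411 at 14 DAP. MATZ ages overlapped, at 2776 and 2379 and then 2246 and 2418 FPKM, and the difference was -2.22 ± 0.25 (log2, SE, adjusted p = 0.00806). mir3 (GRMZM2G166281, chromosome 2, 5269563 to 5273858), another cysteine protease gene, fell in BETL from 261 and 277 to 107 and 113, beside 537 and 386 and then 746 and 732 in MATZ (difference -1.98 ± 0.29, log2, SE, adjusted p = 0.0194). The water channel gene pip2b (GRMZM2G092125, chromosome 2, 168551300 to 168554811), a plasma membrane aquaporin, was at 2520.2 and 2442 and then 1071 and 736 FPKM in BETL and at 5913 and 5703 and then 5962 and 6828 in MATZ. It fell 2.75-fold in BETL, while the MATZ change did not pass (adjusted p = 0.728), and the difference was -1.62 ± 0.25 (log2, SE, adjusted p = 0.021). Of 26 tested aquaporin genes it was the one called.

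Both called lignin-list genes are laccases, copper oxidases that can polymerize lignin. Laccase-13 (GRMZM5G814718, chromosome 1, 46411401 to 46414414) fell from 507 and 394 FPKM to 5.60 and 13.6 in BETL and was at 354 and 247 and then 105 and 98.2 in MATZ, a 46.8-fold and a 2.95-fold lower mean. The MATZ change did not pass the test (adjusted p = 0.0852), and the difference was -3.98 ± 0.64 (log2, SE, adjusted p = 0.0255). LAC1 (GRMZM5G842071, chromosome 3, 179116066 to 179119885) fell from 114 and 76.0 to 8.27 and 18.2 FPKM in BETL, with 43.8 and 49.7 and then 85.1 and 74.6 in MATZ (difference -3.58 ± 0.60, log2, SE, adjusted p = 0.0303). The other 13 tested lignin genes were not called, and the list's median of 0.62 was near that of all genes. FBL2 (GRMZM2G153075, chromosome 6, 147900991 to 147905245) fell 4.05-fold in BETL, with libraries at 206 and 223 and then 46.1 and 59.7 FPKM and no overlap, beside 147 and 144 and then 219.7 and 234 in MATZ (difference -2.64 ± 0.31, log2, SE, adjusted p = 0.00907).

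Abundant unnamed genes fell in BETL too. GRMZM2G039538 (chromosome 2, 207042515 to 207045139) went from 17563 and 17004 FPKM to 105 and 70.3 in BETL and from 12666 and 10425 to 225 and 227 in MATZ. It fell 197-fold and 51.1-fold, so that both tissues lost nearly all of a very abundant transcript and BETL more of it (difference -1.97 ± 0.35, log2, SE, adjusted p = 0.0337). Under quantile normalization this difference was -0.90 and was not called. The lowest adjusted p of all genes was that of GRMZM2G368827 (chromosome 1, 194932443 to 194935353), chosen like mir3 after its values were seen. It was at 6635 and 6095 and then 552 and 459 FPKM in BETL, and at 4255 and 3931 and then 2321 and 2669 in MATZ. The difference was -2.94 ± 0.21 (log2, SE, adjusted p = 0.00198).

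Of the maternal markers, the sum was lower in BETL at 14 DAP through pip2b. The 5 markers summed to 2890.2 and 2755 FPKM in BETL at 8 DAP and to 1435 and 1021 at 14 DAP, a 2.30-fold lower mean, and in MATZ to 7019 and 6880.1 and then 8023 and 8768. Without pip2b, left out after its values were seen, the other 4 summed to 370.0 and 313 FPKM in BETL at 8 DAP and to 363 and 285 at 14 DAP, ages that overlapped, and in MATZ to 1107 and 1177 and then 2061 and 1939. KN-1 was listed at 0 in BETL at both ages. The 34 MADS-box genes summed in BETL to 900 and 792 FPKM and then 833 and 744. CKX4, ccp1, FBL2 and GRMZM2G368827 were called in all 12 fits without 1 library, mir3 in 9, pip2b and Laccase-13 in 8, LAC1 in 6 and GRMZM2G039538 in 5; BETL 8 DAP replicate 1 and MATZ 14 DAP replicate 2 were among the libraries that ended each call lost.

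The remaining lower genes described rose in MATZ, and 45 of the 137 lower genes rose in MATZ with no called change in BETL. Of all genes tested 3.11% rose in MATZ, whatever BETL did, and selection on the difference favors this class too. PAPhy (GRMZM2G134054, chromosome 1, 298073543 to 298076209), which encodes a purple acid phosphatase of the kind that releases phosphate from phytate, was at 267 and 192 FPKM in MATZ at 8 DAP and 1000.4 and 1049 at 14 DAP. BETL had 407 and 387 and then 295 and 274, without overlap between ages, though its change did not pass the test (adjusted p = 0.158). The MATZ rise was 4.46-fold, and the difference was -2.65 ± 0.29 (log2, SE, adjusted p = 0.00806). A GH3 gene (GRMZM2G378106, chromosome 2, 209110460 to 209113041), of the family that conjugates auxin and other hormones to amino acids, rose from 357 and 257 to 1444 and 1281 FPKM in MATZ, with 545 and 533 and then 404 and 315 in BETL. At 8 DAP both BETL libraries were above both MATZ libraries for either gene, and at 14 DAP both were below. GH3 had a difference of -2.76 ± 0.31 (log2, SE, adjusted p = 0.00806) and was the one called of 45 tested auxin genes.

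Also among the genes that rose in MATZ were see2b, cystatin4 and sdh1. see2b (GRMZM2G093032, chromosome 3, 225822959 to 225828669), a legumain-type vacuolar protease gene linked to senescence, went from 293 and 284 FPKM in MATZ to 1150.2 and 1132, a 3.95-fold rise. BETL had 131 and 102 and then 141 and 144, a change that did not pass (adjusted p = 0.333), and the difference was -1.68 ± 0.26 (log2, SE, adjusted p = 0.0241). The cysteine protease inhibitor gene cystatin4 (GRMZM2G013461, chromosome 8, 3347680 to 3350552) had 1155 and 1197 and then 1942 and 1925 FPKM in MATZ and 859 and 852 and then 570.3 and 581 in BETL. It rose in MATZ and fell in BETL, each by less than 2-fold, with a difference of -1.29 ± 0.19 (log2, SE, adjusted p = 0.0194). On the cell death and autophagy list, 2 of 21 tested genes were called, both lower, beside 0.566% of all genes tested. They were ccp1, which fell in BETL, and see2b, which rose in MATZ, so the calls do not share a course. In this list 14 had a difference below 0, and the median was -0.64 against 0.54 for all genes. sdh1 (GRMZM2G175423, chromosome 1, 197267922 to 197271011), for sorbitol dehydrogenase, rose in both tissues, from 796 and 704 to 5043 and 5188 FPKM in BETL and from 43.4 and 42.8 to 643 and 692 in MATZ. The rise was 6.82-fold and 15.5-fold and the difference -1.15 ± 0.21 (log2, SE, adjusted p = 0.0348). cystatin4 and sdh1 were chosen after their values were seen. Leaving out 1 library ended none of 12 calls for PAPhy and GH3, 2 for cystatin4, 4 for see2b and 9 for sdh1, each time with BETL 8 DAP replicate 1 and MATZ 14 DAP replicate 2 among them.

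**Figure D3:**
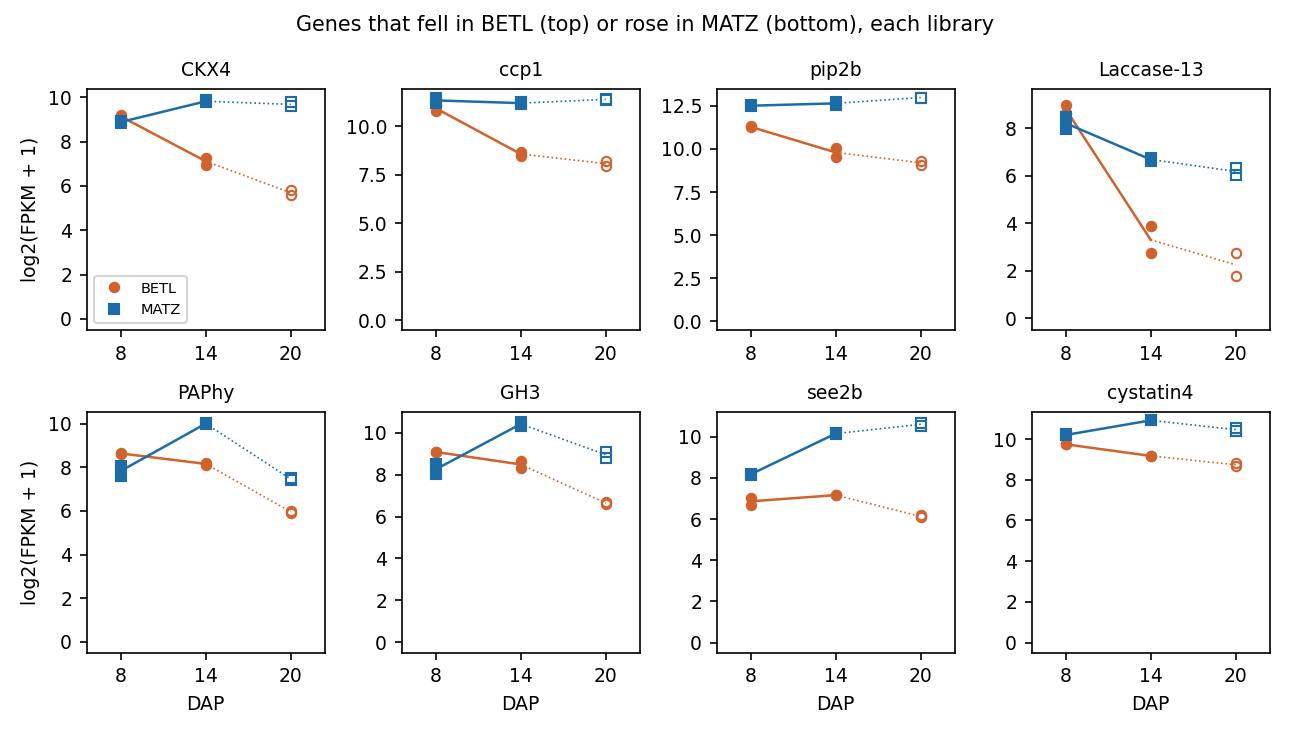
Level in each library, as log2(FPKM + 1), against age in DAP for 8 lower genes present in both tissues at 8 DAP, drawn as in the plot of transfer layer genes. In the upper panels the BETL line falls, while that of MATZ rises (CKX4), changes little (ccp1 and pip2b) or falls less (Laccase-13). In the lower panels the MATZ line rises while that of BETL falls or changes little.

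Among the higher genes, 43 were above 0 in all 4 groups, and in 26 of these the change was above 0 in BETL and below 0 in MATZ. The gene psk1 (GRMZM2G044194, chromosome 7, 3022266 to 3023029), which encodes a precursor of the growth-promoting peptide phytosulfokine, was at 926 and 786 FPKM in BETL at 8 DAP and 2317 and 1876 at 14 DAP. MATZ had 281 and 385 and then 221 and 199. The BETL rise of 2.45-fold passed the test, the lower MATZ level did not (adjusted p = 0.104), and the difference was 1.93 ± 0.29 (log2, SE, adjusted p = 0.0194). The glutathione S-transferase gene gst1 (GRMZM2G116273, chromosome 8, 173117675 to 173120538), a detoxification gene, fell in MATZ from 582 and 629 to 242 and 244 FPKM and stood at 155 and 187 and then 352 and 239 in BETL. BETL lay below MATZ in both libraries at 8 DAP and overlapped it at 14 DAP, with a difference of 2.08 ± 0.31 (log2, SE, adjusted p = 0.0203). mde1 (GRMZM2G155281, chromosome 2, 69177263 to 69180246) rose from 9.49 and 8.98 to 147 and 138 FPKM in BETL, while MATZ ages overlapped at 40.9 and 60.5 and then 61.4 and 58.0. It went from the lower to the higher tissue, with a 15.4-fold rise in BETL and a difference of 3.55 ± 0.53 (log2, SE, adjusted p = 0.0203).

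The glycine-rich protein gene grp1 (GRMZM2G080603, chromosome 1, 178476591 to 178478157) was the one higher gene that fell in both tissues past the test. It went from 5874 and 5887 to 3658 and 3149.6 FPKM in BETL and from 9196 and 8979.7 to 2832 and 2831 in MATZ, a smaller fall in BETL (1.73-fold against 3.21-fold; difference 0.89 ± 0.16, log2, SE, adjusted p = 0.0358). The ferredoxin gene fdx3 (GRMZM2G053458, chromosome 1, 296017136 to 296018088) rose in BETL from 126 and 83.5 to 478 and 304 FPKM, beside 220.2 and 282 and then 182 and 245 in MATZ, where ages overlapped (difference 2.12 ± 0.43, log2, SE, adjusted p = 0.0495). LOB14 (GRMZM2G044902, chromosome 1, 77144729 to 77146171), a LOB-domain transcription factor gene, stayed higher in MATZ at both ages, at 262 and 315 and then 469 and 476 FPKM. In BETL it rose from 27.3 and 31.3 to 171 and 133, for a difference of 1.61 ± 0.32 (log2, SE, adjusted p = 0.0478).

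Unnamed genes were also among the most abundant of this set. GRMZM2G360339 (chromosome 6, 115129435 to 115130905) rose from 329 and 456 to 2123 and 2199.6 FPKM in BETL and was at 1651 and 2365 and then 1291 and 1688 in MATZ. A 5.50-fold rise took it from well below MATZ to above both 14 DAP libraries of MATZ, with a difference of 2.90 ± 0.32 (log2, SE, adjusted p = 0.00806). GRMZM2G052869 (chromosome 8, 14541186 to 14542451) rose in both tissues, 17.7-fold in BETL (from 248 and 147 to 4098 and 2909 FPKM) and 3.47-fold in MATZ (from 257 and 315 to 955 and 1028). Its difference was 2.37 ± 0.35 (log2, SE, adjusted p = 0.0203). GRMZM2G027392 (chromosome 9, 1427343 to 1428678) rose in BETL from 979 and 839 to 4278 and 3273 FPKM, while MATZ ages overlapped at 617 and 999.6 and then 701 and 703 (difference 2.21 ± 0.33, log2, SE, adjusted p = 0.0207). GRMZM2G161154 (chromosome 3, 19826974 to 19828196) had a 2.88-fold rise in BETL and a difference of 1.11 ± 0.21 (log2, SE, adjusted p = 0.0407). GRMZM2G360339 kept its call in all 12 fits without 1 library, gst1 and mde1 in 9, psk1 in 8, GRMZM2G052869 in 7, GRMZM2G027392 in 5, LOB14 in 2 and grp1, fdx3 and GRMZM2G161154 in 1. Without MATZ 14 DAP replicate 2 each of these but GRMZM2G360339 lost it.

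**Figure D4:**
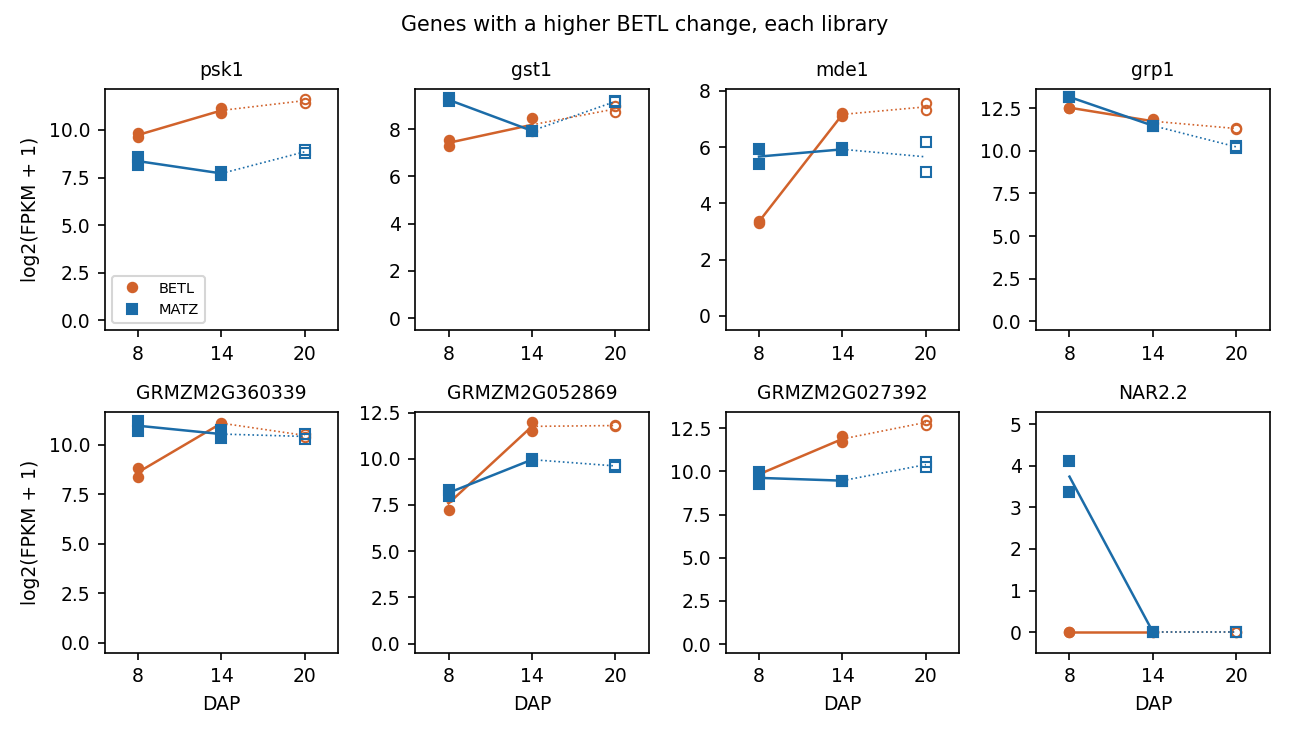
Level in each library, as log2(FPKM + 1), against age in DAP for 8 genes with a higher difference, drawn as in the plot of transfer layer genes. The BETL line rises above, or falls less than, that of MATZ; NAR2.2 is above 0 in the MATZ libraries of 8 DAP only.

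The larger share of the higher set consists of genes listed at 0 in whole groups. In 38 of 170 genes MATZ at 8 DAP was the one group of the 4 above 0, and in 21 BETL at 14 DAP was. NAR2.2 (GRMZM2G163494, chromosome 2, 37329548 to 37331367), which encodes an accessory protein of nitrate transporters, was at 9.29 and 16.4 FPKM in MATZ at 8 DAP and listed at 0 in the other 10 libraries, 20 DAP included. The same held for YAB3, a YABBY transcription factor gene, at 8.49 and 16.2 FPKM, for CNR10, a cell number regulator gene, at 14.99 and 7.91, and for PR-5, a thaumatin-like defense gene, at 8.82 and 12.3. An ACC oxidase gene (ACO, GRMZM2G072529), for the last step of ethylene synthesis, was the fifth, at 7.63 and 12.9. Their differences ran from 3.46 to 3.74 (log2; adjusted p = 0.0309 to 0.0345), and none was called with a filter of 5 FPKM or under quantile normalization. No fold is given against a group listed at 0. NAR2.2, YAB3, CNR10, PR-5 and ACO passed the filter of at least 1 FPKM in at least 2 libraries only through MATZ at 8 DAP. That is the group in which they were high, and groups at 0 in both libraries add no spread to the fit. Their p-values are therefore not separate support for these calls. The share of all genes tested that were above 0 in a single group is not given here.

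In others the zeros lay in BETL at 8 DAP. The transcription factor genes bZIP116 (GRMZM2G132868) and bHLH129 (GRMZM5G856837) were listed at 0 there. bZIP116 was at 21.9 and 19.0 FPKM in BETL at 14 DAP and at 10.8 and 7.09 and then 9.80 and 17.9 in MATZ (difference 3.87 ± 0.76, log2, SE, adjusted p = 0.046). bHLH129 was at 28.8 and 13.5 in BETL and 11.1 and 6.78 and then 15.9 and 11.9 in MATZ (difference 3.77 ± 0.76, log2, SE, adjusted p = 0.0492). CA (GRMZM2G087259) was listed at 0 in BETL at 8 DAP and in MATZ at 14 DAP, and stood at 8.57 and 1.64 FPKM in BETL at 14 DAP and at 7.74 and 12.5 in MATZ at 8 DAP (difference 5.77 ± 1.15, log2, SE, adjusted p = 0.0487). bZIP116, bHLH129 and CA were each called in 2 of 12 fits without 1 library, CNR10 in 5, YAB3 and ACO in 6, NAR2.2 in 7 and PR-5 in 8, and none was once replicate 1 of BETL at 8 DAP or replicate 2 of MATZ at 14 DAP was left out.

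Across 25 gene lists, 11 held a called gene, and 14 lists with 220 tested members in all held none, beside 1.27% of all genes tested. With so few members per list, 1 call or none was not read as a trait of a list. In the lists with calls not yet described, the list of embryo genes and those around the embryo had 1 of 13 (esr1, median 1.02), cell wall 1 of 28 (BURP7, 0.55), nutrient transporters 1 of 34 (NAR2.2, 0.05) and defense 1 of 32 (PR-5, 0.51). Of the cell cycle and histone genes none of 29 was called, 3 fell in BETL and 6 in MATZ, none rose in either, and the difference was above 0 for 23 of 29 (median 0.69 against 0.54 for all genes). Starch genes, none of 18 called, had a median difference of 0.65, and 5 rose in BETL and 4 in MATZ. MADS-box genes had none of 29 called (median -0.02), ribosomal protein genes none of 33 (0.13), heat shock genes none of 24 (0.30), abscisic acid genes none of 22 (0.64), photosynthesis genes none of 18 (0.24), low-oxygen genes none of 14 (0.04) and invertase and sucrose genes none of 9 (0.03). Proton pump (6 tested), flavonoid (8), ethylene (4), gibberellin (3) and lipid transfer genes (3) also held no call.

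**Figure D5:**
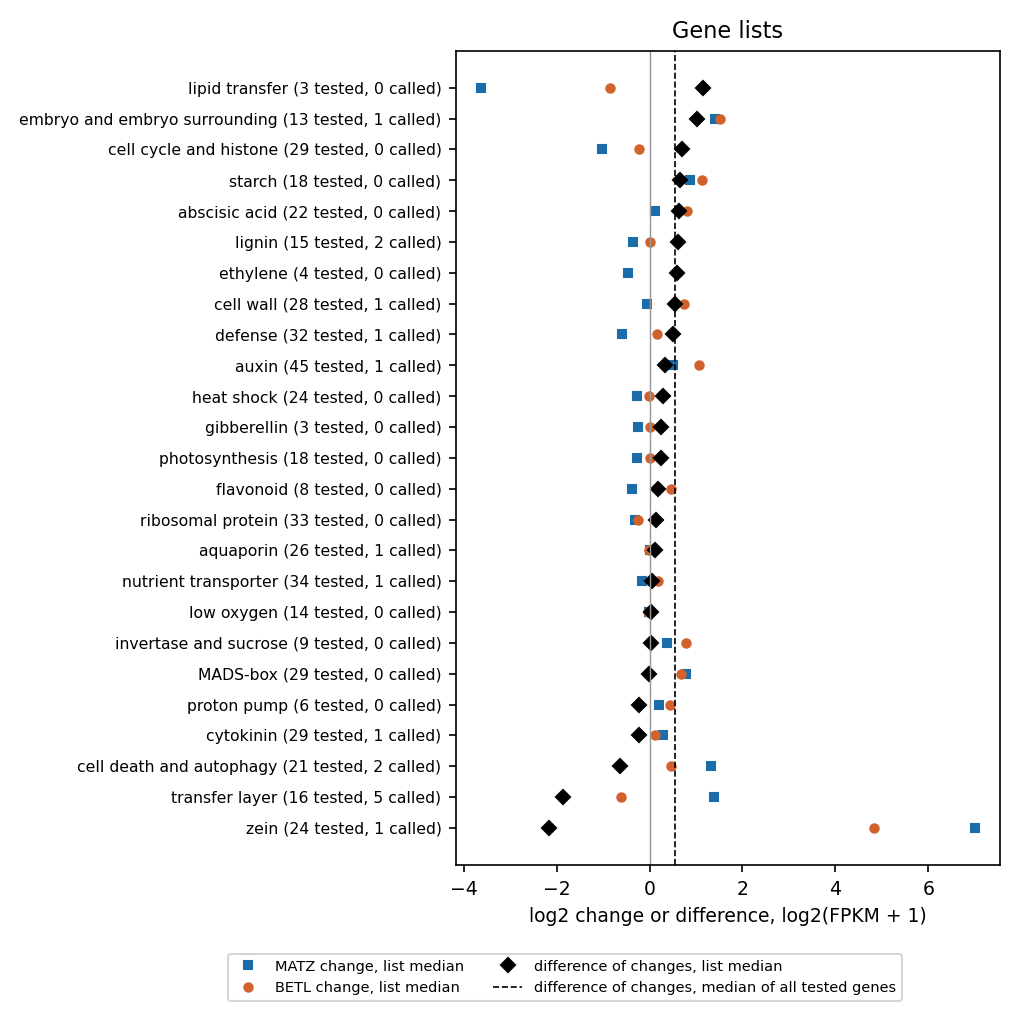
Median of each of 25 gene lists for the change in MATZ (squares), the change in BETL (circles) and the difference of changes (diamonds), on the log2(FPKM + 1) scale, with tested and called members beside each name. Zein and transfer layer genes lie lowest, at -2.15 and -1.86, and the dashed line marks the median of 0.54 over all genes tested.

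For genes with a known part in sugar supply, intervals show how far the tissues could still differ. Expression of mn1 (GRMZM2G119689, chromosome 2, 56806976 to 56810257), for the cell wall invertase that cleaves sucrose at the BETL surface, fell in both tissues. It went from 7225 and 6251 to 3614 and 2744 FPKM in BETL and from 1156 and 1071 to 464 and 559 in MATZ, a 2.12-fold and a 2.18-fold lower mean. The difference was 0.03 (log2, 95% interval -0.54 to 0.60, adjusted p = 0.976). The sucrose transporter gene sut1 rose in both tissues, from 66.9 and 63.0 to 219.7 and 246 FPKM in BETL and from 21.1 and 6.37 to 102 and 77.6 in MATZ (difference -0.997, log2, 95% interval -2.46 to 0.46, adjusted p = 0.514).

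Among maternal marker genes, the AGAMOUS-clade gene zag2 (GRMZM2G160687, chromosome 3, 137228194 to 137233198) was at 173 and 125 and then 79.7 and 44.0 FPKM in BETL and at 228 and 239.5 and then 365 and 449 in MATZ. Its difference of -2.09 (log2, 95% interval -3.04 to -1.13, adjusted p = 0.0514) lay just outside the threshold. MADS4 had a difference of -0.77 (log2, 95% interval -1.38 to -0.16, adjusted p = 0.193). xet1, for a xyloglucan-modifying wall enzyme, rose in both tissues, with a difference of -0.52 (log2, 95% interval -1.47 to 0.43, adjusted p = 0.609). The alcohol dehydrogenase gene adh2 was at 116 and 99.9 and then 329 and 283 FPKM in MATZ, and its difference was -1.55 (log2, 95% interval -2.75 to -0.34, adjusted p = 0.187). A chitinase gene (GRMZM2G453805) with 1298 and 1403 FPKM in MATZ at 8 DAP and 477 and 469 at 14 DAP had 12.4 and 2.90 and then 9.39 and 19.1 in BETL, and its difference was 2.51 (log2, 95% interval 0.18 to 4.84, adjusted p = 0.271).

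The 20 DAP libraries were not part of the difference, although they share in the estimate of spread. At that age 65 of the 137 lower genes were called higher in MATZ and 41 higher in BETL, and 31 were not called, beside 6.38% and 4.23% of all genes tested. Some of the lower genes named above stayed apart: CKX4 was at 55.2 and 46.7 FPKM in BETL and 769 and 876 in MATZ at 20 DAP, ccp1 at 242 and 295 in BETL and 2609 and 2726 in MATZ, and see2b at 71.4 and 66.9 in BETL and 1484 and 1647 in MATZ. MATZ exceeded BETL 16.1-fold, 9.93-fold and 22.6-fold. betl4 was 6.29-fold higher in BETL at that age (adjusted p = 2.6e-04) and BURP7 17.8-fold (adjusted p = 8.6e-05). fl3, level between the tissues at 14 DAP, was at 12.3 and 14.7 FPKM in BETL and listed at 0 in both MATZ libraries. The lower gene esr1 was listed at 0 in both libraries of either tissue at 20 DAP. Of the 170 higher genes 37 were called higher in BETL at 20 DAP, 9 higher in MATZ, and 124 were not called. psk1 was at 2772 and 3215 FPKM in BETL and 491 and 436 in MATZ, a 6.46-fold difference, whereas GRMZM2G360339 had 1322 and 1500.0 and 1491 and 1238, which overlapped.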

How the data were processed

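Kernels of W22 maize (wild type) gave RNA-seq libraries of 2 tissues at 3 ages, 2 in each of 6 groups, which were assigned by the labels. The authors deposited FPKM values (fragments per kilobase of transcript, scaled by library size), with the libraries as columns per the file headers. The submitters' processing notes name TopHat2, Bowtie2 and Cufflinks. Their versions and settings, and the genome build, are not stated in the labels, and coordinates are those of the table. Depth is not stated, which limits the reading of low values.

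FPKM was used as deposited, on the log2(FPKM + 1) scale. Of 39423 gene models, 24213 with at least 1 FPKM in at least 2 libraries were tested. limma 3.58.1 (R 4.3.3, empirical Bayes moderation with a trend on the mean) was fitted to all 12 libraries with 6 group means, leaving 6 residual degrees of freedom. Benjamini-Hochberg adjustment ran over all genes tested. Intervals of differences are 95% intervals of that fit, unadjusted. Python 3.11.15 with pandas 2.3.3 and matplotlib 3.10.9 made tables and figures.

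Names came from a RefSeq gene table (Zm-B73-REFERENCE-NAM-5.0), which matched 18771 of the IDs and was used for names alone. Roles are general knowledge of the name, not checked against sequence. Gene lists were matched by name, with 93 names of another sense taken out. Named genes were, in each direction, the 15 called genes with a descriptive name and the largest difference among those with a mean of at least 10 FPKM, the 6 most abundant called genes, up to 4 members with the highest mean per list, and fixed anchors (bt2 matched no ID among the genes tested). Of these, genes with clear library values are described. Members and lists were chosen with earlier results of these data known. Alternatives were pseudocounts of 0.1 and 5, no filter, a filter of 5 FPKM, scaling by median of ratios or by quantiles, a replicate block, the 8 libraries alone, no mean trend, library weights, leaving out each library and, added after seeing the data, a mean of at least 20 FPKM.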

Additional observations from a re-analysis of the deposited data

Results flagged for a closer look

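Each gene called in the report had a change from 8 to 14 DAP that differed between the tissues by the test of the difference itself (limma, adjusted p under 0.05 over all genes tested), and 45 are described. Values are differences of changes (log2), with BETL minus MATZ. Transfer layer genes were betl4 (-2.81), betl10 (-1.88), betl-9 (-2.40), bap2 (-2.14) and tcrr-1 (-4.64). Other endosperm genes and abundant BETL transcripts were BURP7 (-4.15), fl3 (-6.13), leg1 (-5.56), esr1 (-6.74), gz27 (-2.75), GRMZM2G406552 (-1.94), GRMZM5G897740 (-1.89) and GRMZM2G158400 (-2.56).

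Genes that fell in BETL, or fell further there, were CKX4 (-2.96), ccp1 (-2.22), mir3 (-1.98), pip2b (-1.62), Laccase-13 (-3.98), LAC1 (-3.58), FBL2 (-2.64), GRMZM2G039538 (-1.97) and GRMZM2G368827 (-2.94). Genes that rose in MATZ, or rose further there, were PAPhy (-2.65), GH3 (-2.76), see2b (-1.68), cystatin4 (-1.29) and sdh1 (-1.15).

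Genes with a higher difference and values above 0 in all 4 groups were psk1 (1.93), gst1 (2.08), mde1 (3.55), grp1 (0.89), fdx3 (2.12), LOB14 (1.61), GRMZM2G360339 (2.90), GRMZM2G052869 (2.37), GRMZM2G027392 (2.21) and GRMZM2G161154 (1.11). Those listed at 0 in whole groups were NAR2.2 (3.74), YAB3 (3.68), CNR10 (3.58), PR-5 (3.52), ACO (3.46), bZIP116 (3.87), bHLH129 (3.77) and CA (5.77). Groups of 2 libraries are too small to single out one library by its distance from the others.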

How the results depend on the processing

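Against 307 genes called (170 higher, 137 lower), a pseudocount of 0.1 gave 952 (704 and 248) and a pseudocount of 5 gave 274. No filter left 104 higher, quantile normalization 88 higher, and a mean of at least 20 FPKM gave 221 lower. The replicate block gave 129 (42 and 87), the 8 libraries alone 1 (1 and 0), no mean trend 164 with 34 lower, and library weights 101 (36 and 65). Leaving out 1 library gave 68 to 797 genes (22 to 573 higher, 46 to 224 lower). In other settings the total, the higher and the lower count each stayed within 1.5 times, and the cause of the larger moves was not tested. The call was kept by 299 of the 307 genes with a pseudocount of 0.1, 290 with median-of-ratios scaling and 177 under quantile normalization. Fewer kept it where the spread was modeled otherwise: 129 with the replicate block, 117 without the mean trend, 101 with library weights and 1 on the 8 libraries alone. Without the mean trend, 27 of the 137 lower genes kept their call.

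Of the 16 transfer layer genes, 5 were called, and 0 without the mean trend or on the 8 libraries alone. Among named genes not called, the sign of mn1 turned with median-of-ratios scaling (-0.101), and without 1 library mn1 ran from -0.165 to 0.233 and xet1 from -1.09 to 0.0463. Same-numbered libraries did not deviate together over genes: the replicate 1 minus replicate 2 differences of 15 pairs of groups correlated with r = -0.0168 to 0.0164. The labels do not tell whether equal numbers mark a shared origin, and these correlations, with 1 difference per group, cannot settle it. Whether the replicate block pairs related samples is therefore not known. With 2 libraries per group and depth not stated, values under about 20 FPKM are the least secure.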
